A study of Mus musculus with 4 samples.

Results

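The genes described here encode the subunits of the mitochondrial respiratory chain and ATP synthase that are made from the nuclear genome. They were the protein-coding genes whose symbols belong to the Nduf, Sdh, Uqcr, Cyc1, Cycs, Cox4 to Cox8 and Atp5 families, with pseudogenes left out, and 82 of the 21279 genes in the 4 count tables met this rule. Of the 82, 36 carry complex I symbols, 4 belong to complex II, 9 to complex III, 15 to complex IV and 17 to complex V (ATP synthase), and 1 is cytochrome c. Another 4 annotated genes that fit the rule had no UMI in any library: Cox4i2, Cox7b2, Cox8c and a second Atp5o entry. The study profiled cells of the renal cortex by Drop-seq, a droplet method that tags each captured mRNA with a cell barcode and a unique molecular identifier (UMI), in 2 mice carrying the Akita mutation of the insulin gene Ins2 on the C57BL/6 background, a model of type 1 diabetes, and in 2 wild-type mice. By the labels Akita replicates 1 and 2 were aged 116 and 119 days and the wild-type replicates 45 and 51 days, so age and genotype cannot be told apart, and these ages do not match the 24 weeks of housing that the labels also give. Cells came from 1 kidney, minced, sieved and digested with collagenase IV, with 1 library per mouse.

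The libraries labelled Akita replicate 2 and Wild-type replicate 1 shared 884 cell barcodes, while every other pair of libraries shared 3 or 4. Where both copies of a shared barcode were retained, 422 of 424 fell in the same cell class. These libraries therefore count many of the same cells, and comparisons between cell classes used 3 animal units: Akita replicate 1, the pair with each shared barcode counted once, and Wild-type replicate 2. Values below follow this order of units. The pair mixes both genotype labels.

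Oxidative phosphorylation passes electrons from NADH through complex I and from succinate through complex II to ubiquinone, then through complex III, cytochrome c and complex IV to oxygen, and complex V makes ATP with the resulting proton gradient. Complexes I, III, IV and V combine subunits from both genomes, whereas complex II is encoded by nuclear genes alone. The thick ascending limb of the loop of Henle and the distal convoluted tubule are rich in mitochondria, which supply the ATP used by basolateral sodium pumps. The proximal tubule is also rich in mitochondria and feeds them mainly with fatty acids.

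After filtering, 311, 600, 564 and 441 cells remained in Akita replicates 1 and 2 and Wild-type replicates 1 and 2, with median depths of 746.5 to 835 UMIs per cell. Cells were clustered without the 82 genes and without mitochondrially encoded genes, then named from marker genes. Over the 3 units there were 1144 proximal tubule-like, 100 loop of Henle-like, 94 distal convoluted tubule-like, 77 intercalated-like and 43 connecting tubule-like cells. Kap, a proximal tubule transcript, averaged 37994 CPM (UMIs of a gene scaled to a common total of all UMIs in a class) in proximal tubule-like cells and 6229 CPM in loop of Henle-like cells, 16.4% of that level. Umod, which encodes uromodulin of the thick ascending limb, averaged 3652 CPM in loop of Henle-like cells, 1753 CPM in distal convoluted tubule-like cells and 58.6 CPM in proximal tubule-like cells. Slc12a3, the thiazide-sensitive cotransporter of the distal convoluted tubule, averaged 15194 CPM in the class named for that segment and 2119 CPM in loop of Henle-like cells. Some other markers were at similar levels in these 2 classes: Pvalb, listed for the distal convoluted tubule, averaged 387 CPM in its own class and 476 CPM in loop of Henle-like cells, and Egf, listed for the loop of Henle, 3042 and 3158 CPM. Markers listed for a segment were thus also counted in classes named for others. Why was not tested, nor was the part of this in the differences below. Another 23 cells, with a median of 5044 UMIs across the files, stayed unnamed.

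Across all retained cells the 82 genes made up a large share of the message. Of the nuclear-encoded UMIs they took 7.54% in Akita replicate 1 and 8.76% in Akita replicate 2, and 8.51% and 7.47% in Wild-type replicates 1 and 2. Levels are UMI counts of tagged molecules and are not divided by gene length. By the mean over the 4 libraries, 25 of the 82 genes reached 1000 CPM, 76 reached 100 CPM and 5 stayed under 50 CPM.

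Complex IV genes were the most abundant, with Cox4i1, a subunit that helps set the activity of the enzyme, at 2714, 3362, 3134 and 2891 CPM in Akita replicates 1 and 2 and Wild-type replicates 1 and 2. Cox6c, an accessory subunit, followed at 2388, 3166, 2962 and 2416 CPM. These ranked 11 and 12 among all nuclear-encoded genes, and for both genes the 2 libraries with shared barcodes were the highest. The median over the genes of a complex was 494 CPM for complex I, 359 CPM for complex II, 729 CPM for complex III, 1591 CPM for complex IV and 1039 CPM for complex V. Within complex I the 7 core subunits, which carry the flavin, the iron-sulfur clusters or the quinone site, had a median of 336 CPM and a range of 154 to 389 CPM. The other 29 complex I genes had a median of 573 CPM and reached 1230 CPM in Ndufa1. This order held in each of the 4 libraries, where the core median was 322 to 342 CPM and the median of the others 528 to 607 CPM.

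Several isoform genes were nearly silent. Cox6a2 and Cox8b, the isoforms of heart and skeletal muscle, averaged 0.66 and 0.64 CPM over the libraries, while their widely expressed counterparts Cox6a1 and Cox8a averaged 2075 and 1945 CPM. Cox6b2, known from testis, averaged 13.8 CPM against 1692 CPM for Cox6b1. The 3 genes Atp5g1, Atp5g2 and Atp5g3 encode the same mature c subunit of the ATP synthase ring and differ in their import sequences, and they averaged 1143, 183 and 1983 CPM. Atp5l, which encodes subunit g, stood at 38.4 to 59.2 CPM, and because reads shared with near-identical gene copies may not have been counted, its level is uncertain.

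Among the classes named, loop of Henle-like cells had the largest share of their message in these genes. The 82 genes took 14.5%, 16.7% and 13.7% of nuclear-encoded UMIs in the 3 units of loop of Henle-like cells, against 6.41%, 7.31% and 6.51% in proximal tubule-like cells. Every loop of Henle-like unit lay above every proximal tubule-like unit, and the ratio of the means was 2.22. Intercalated-like cells held 10.1% ± 0.242 (SD, n = 3), distal convoluted tubule-like cells 9.33% ± 1.28 and connecting tubule-like cells 9.12% ± 0.478. The range of distal convoluted tubule-like units overlapped both others, while every intercalated-like unit lay above every connecting tubule-like unit. The 11 cells of the macrophage or dendritic class held 1.75% to 2.75%. The unnamed cells of high depth held 11.9% to 14.4%.

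**Figure D1:**
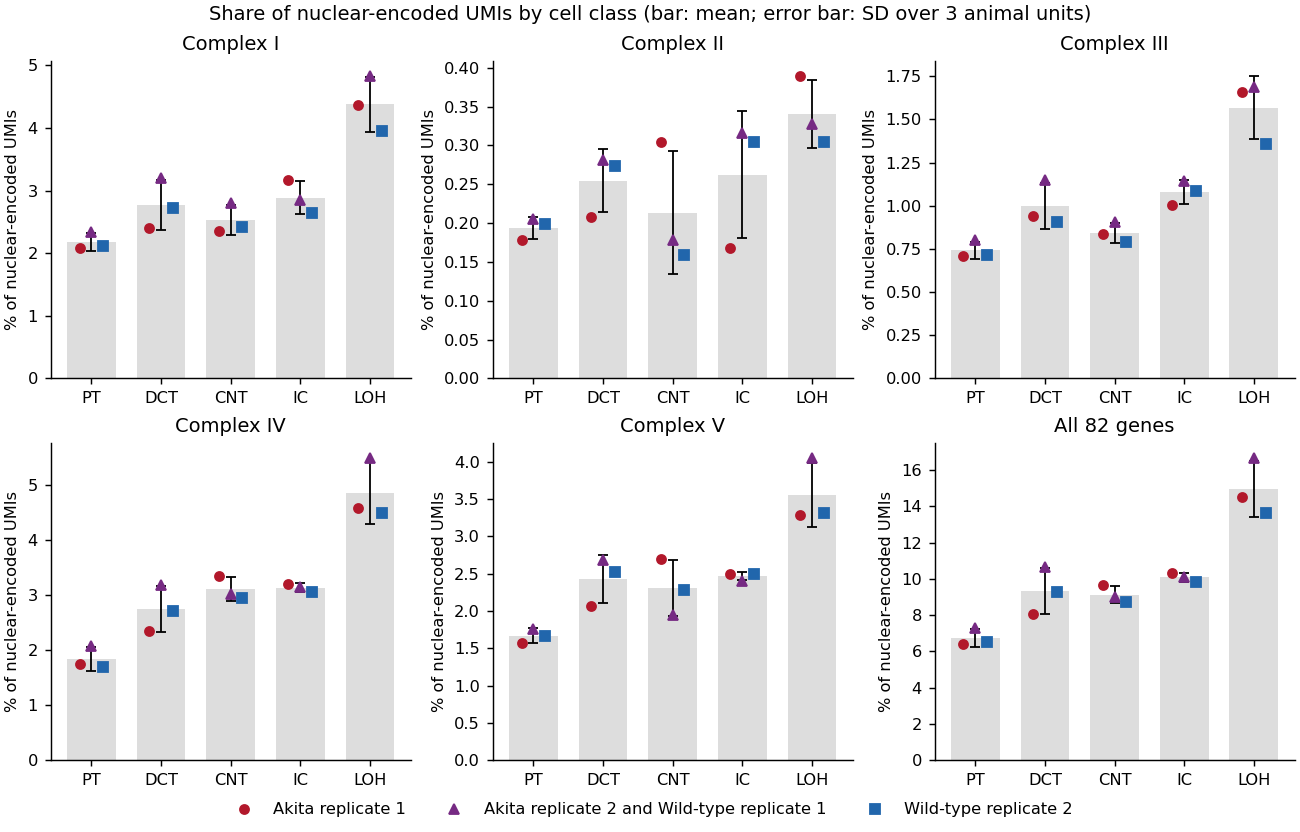
Percent of nuclear-encoded UMIs taken by the genes of each complex (y axis, starting at 0) in proximal tubule-like (PT), distal convoluted tubule-like (DCT), connecting tubule-like (CNT), intercalated-like (IC) and loop of Henle-like (LOH) cells. Points are the 3 animal units, bars their mean and error bars 1 SD. Loop of Henle-like cells lie highest for complexes I, III, IV and V in every unit, and complex IV has the widest ratio to proximal tubule-like cells, 2.64.

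The gain was not equal between complexes. The ratio of the mean share in loop of Henle-like to that in proximal tubule-like cells was 2.64 for complex IV, 2.13 for complex V, 2.12 for complex III, 2.02 for complex I, 1.95 for cytochrome c and 1.76 for complex II. Complex IV consequently made up 32.4% of the subunit message in loop of Henle-like cells and 27.2% in proximal tubule-like cells, while complex I made up 29.3% and 32.2%. Connecting tubule-like cells were most skewed towards complex IV, at 34.0% of the subunit message. For cytochrome c the share in intercalated-like cells was 1.96 times that in proximal tubule-like cells, as high as in loop of Henle-like cells, and in distal convoluted tubule-like cells it was 1.07 times. UMIs of all mitochondrially encoded genes, subunit genes or not, are not in these shares. They made up 21.8% to 25.9% of all UMIs in loop of Henle-like units and 17.4% to 20.9% in proximal tubule-like units.

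Single genes were compared between classes on counts summed per unit, with edgeR's quasi-likelihood test across all genes that passed a filter on low counts and with the unit as a block. Of the 82 genes, 74 were among the 764 genes that passed this filter. Those not tested were Ndufs1, Cox6a2, Cox6b2, Cox7a1, Cox7a2l, Cox8b, Atp5l and Atp5s. A gene that is high in 1 class can pass the filter through that class alone, so counts over the 74 describe these genes and are not set against chance.

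In loop of Henle-like cells, 54 of the 74 genes were higher than in proximal tubule-like cells and 0 were lower, beside 27.1% and 30.0% of all 764 genes tested. Their median log2 fold change was 0.78 and that of all genes tested −0.03. Of the 74, 63 had every loop of Henle-like unit above every proximal tubule-like unit, as did 32.6% of all genes tested, and none had every unit below, as 29.7% of all genes did. All 10 complex IV genes tested were called higher, as were 12 of 15 in complex V, 7 of 9 in complex III, 22 of 35 in complex I and 2 of 4 in complex II.

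Complex IV showed the widest and most even rise, with a median log2 fold change of 1.03 and a range of 0.92 to 1.45. Cox6c counted 1838, 2233 and 1794 CPM in the 3 units of proximal tubule-like cells and 5323, 6841 and 5833 CPM in loop of Henle-like cells. The classes were far apart in each unit, and the log2 fold change was 1.45 ± 0.17 (SE, edgeR adjusted p = 9.2e-13). Cox7b, a small subunit encoded on the X chromosome, went from 1564, 1635 and 1264 CPM to 4731, 4772 and 4092 CPM, a log2 fold change of 1.44 ± 0.17 (edgeR adjusted p = 1.2e-12). Cox4i1 had the smallest change of the complex, 0.92 ± 0.17, from 2317, 2770 and 2535 CPM to 4140, 6234 and 5772 CPM. Cox6a1 rose by 0.98 ± 0.17.

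In complex V the largest change was in a c subunit gene. Atp5g1 counted 686, 919 and 819 CPM in proximal tubule-like cells and 2661, 2786 and 1985 CPM in loop of Henle-like cells, a log2 fold change of 1.41 ± 0.18 (edgeR adjusted p = 2.8e-11). Atp5g2 rose by 1.38 ± 0.34 and Atp5g3, the most abundant of the 3, by 0.70 ± 0.17. The F1 head, which carries the catalytic sites, moved less evenly. Its alpha subunit Atp5a1 rose by 0.77 ± 0.18 and its gamma subunit Atp5c1 by 0.92 ± 0.18, while the beta subunit Atp5b had a value of 0.22 ± 0.19 that did not pass (edgeR adjusted p = 0.34). Atp5b counted 1307, 1096 and 1239 CPM in proximal tubule-like and 1479, 1793 and 1405 CPM in loop of Henle-like cells. Atp5j, the coupling factor subunit of the stalk, rose by 1.21 ± 0.18.

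Complex I and complex III were mixed. Ndufv2, an iron-sulfur subunit of the NADH-binding arm, counted 290, 281 and 325 CPM in proximal tubule-like cells and 1257, 938 and 580 CPM in loop of Henle-like cells, a log2 fold change of 1.37 ± 0.26 (edgeR adjusted p = 2.4e-06). Its partner in that arm, Ndufv1, had a value of −0.01 ± 0.37, and Ndufv3, an accessory subunit there, −0.22 ± 0.25; neither passed. Among the most abundant complex I genes, Ndufa1 rose by 1.37 ± 0.18, Ndufb9 by 1.31 ± 0.18 and Ndufc1 by 1.24 ± 0.18, and Ndufa13 had 0.42 ± 0.19 and Ndufa6 −0.09 ± 0.21, which did not pass. Ndufa4, which carries a complex I symbol but is now regarded as a complex IV subunit, counted 598, 874 and 900 CPM in proximal tubule-like and 1109, 1352 and 1252 CPM in loop of Henle-like cells; every unit of the latter was higher, but 0.45 ± 0.21 did not pass (edgeR adjusted p = 0.053). In complex III the small subunits Uqcrh, Uqcr11, Uqcrb, Uqcrq and Uqcr10 rose by 1.28, 1.07, 0.79, 0.79 and 0.47, with standard errors of 0.17 to 0.20. The Rieske iron-sulfur protein Uqcrfs1 had 0.24 ± 0.25 and the core protein Uqcrc2 0.08 ± 0.41, and neither passed.

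Complex II split in the same way. Sdhb, the iron-sulfur subunit, rose by 0.69 ± 0.20 and the membrane anchor Sdhd by 0.71 ± 0.26. The flavoprotein Sdha counted 250, 275 and 227 CPM in proximal tubule-like and 370, 303 and 244 CPM in loop of Henle-like cells, ranges that overlapped, with a log2 fold change of 0.05 ± 0.36. The other anchor, Sdhc, had −0.23 ± 0.37, and the wide errors of both leave changes of moderate size undetected at this depth. Cycs, the electron carrier between complexes III and IV, rose by 0.72 ± 0.18.

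**Figure D2:**
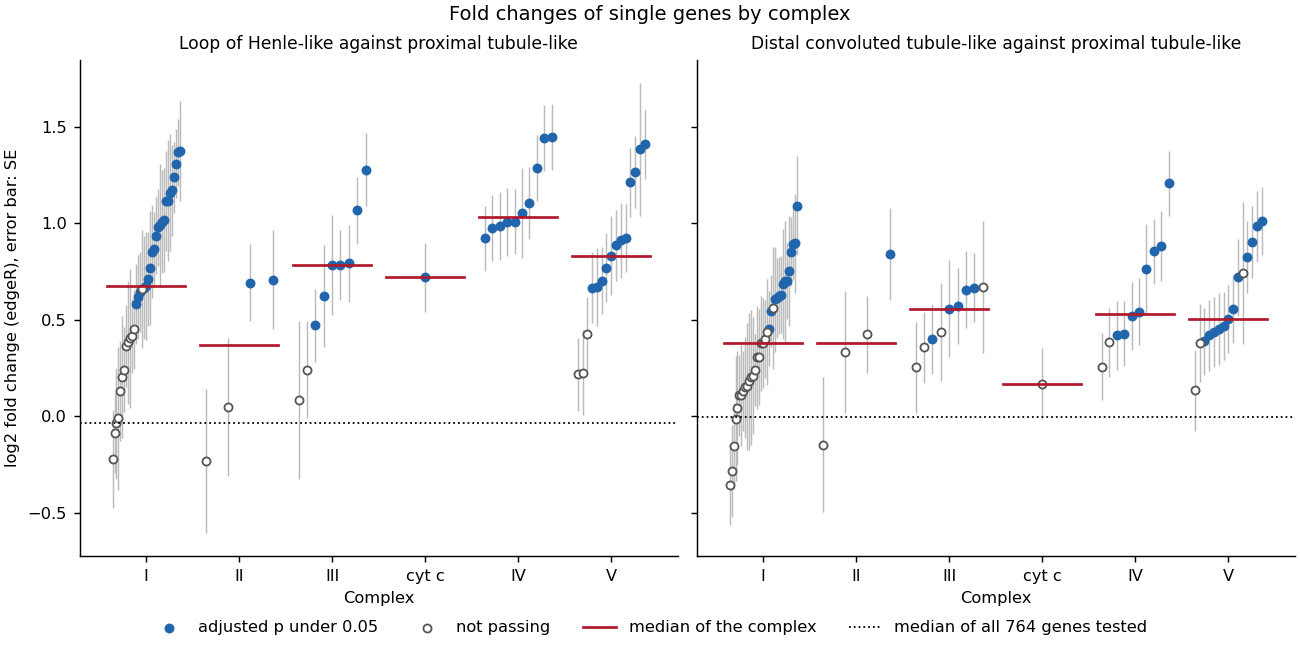
log2 fold change of each tested gene (y axis, edgeR estimate with its SE) by complex (x axis), for loop of Henle-like (left) and distal convoluted tubule-like cells (right) against proximal tubule-like cells over 3 animal units. Filled points have an adjusted p under 0.05, red lines are medians of a complex and the dotted line is the median of all 764 genes tested. Complex IV lies highest on the left, with a median of 1.03, while complex I spreads from −0.22 to 1.37.

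The scaling sets the zero of these fold changes. With no filter on low counts the median of all genes moved from −0.03 to −1.15 in this comparison, the subunit genes had a median of 0.17, which is 1.32 above it, and 4 were called higher. With each cell thinned to 500 UMIs 21 of 57 tested genes were called higher. The shares of all genes called in these settings are not given here, so the counts are not set against them.

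Because many of these genes moved together, their promoters were read from the RefSeq table of GRCm38.p6, which matched 66 of the 82 by symbol and gives 250 bases before and 50 bases after the gene start. The search covered both strands for the core motifs of 3 factors known to bind promoters of respiratory genes, and the last letters of the ETS motif, AAG, are the first of the YY1 motif, so that these can overlap. The palindromic core motif of nuclear respiratory factor 1 (NRF1) was present in 5 of the 66 (7.58%) and in 0.977% of 27025 promoters of all genes. The ETS core CCGGAAG, contained in sites of GABPA (nuclear respiratory factor 2), was present in 15 (22.7%) and in 9.12% of all promoters. The YY1 core AAGATGGC was present in 8 (12.1%) and in 2.88% of all promoters, and in all 8 it lay at or after the gene start. Among the genes tested in the loop of Henle-like comparison, those called higher were 14 of 14 with the ETS core and 32 of 47 without it, 5 of 8 with the YY1 core and 41 of 53 without it, and 5 of 5 with the NRF1 core and 41 of 56 without it. These counts carry no test, and a match of letters is no evidence of binding. The 27025 promoters outnumber the 21279 genes with counts here, and shares among expressed genes only were not taken. The median GC content of the 250 bases before the start was 56.2% in the 66 and 52.0% in all promoters, and its part in these shares was not tested.

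The first pair of sequences below shows, for the NRF1 and ETS motifs, the 250 bases before the start of the gene with the largest loop of Henle-like fold change among those that hold the motif there, with the match in capitals. The third shows the 30 bases around a YY1 match, which lie after the start, in the gene with the largest fold change among those that hold that motif. The last, without a match, belongs to the isoform gene described further on. All are written 5′ to 3′ on the strand of the gene.
Atp5g2 (chr15:102671048-102671297, minus strand): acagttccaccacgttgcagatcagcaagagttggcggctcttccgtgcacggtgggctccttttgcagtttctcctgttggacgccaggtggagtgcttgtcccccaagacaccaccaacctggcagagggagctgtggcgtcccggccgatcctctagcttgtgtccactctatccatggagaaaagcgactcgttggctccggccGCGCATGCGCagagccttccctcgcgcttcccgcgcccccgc
Cox6b1 (chr7:30626115-30626364, minus strand): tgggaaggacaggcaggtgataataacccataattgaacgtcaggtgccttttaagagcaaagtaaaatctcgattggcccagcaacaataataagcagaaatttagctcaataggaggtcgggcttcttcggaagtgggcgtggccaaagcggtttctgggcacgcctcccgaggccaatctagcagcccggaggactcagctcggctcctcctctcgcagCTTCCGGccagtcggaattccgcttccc
Ndufc1 (chr3:51408915-51408944, minus strand): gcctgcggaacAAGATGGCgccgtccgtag
Cox7a1 (chr7:30183921-30184170, plus strand): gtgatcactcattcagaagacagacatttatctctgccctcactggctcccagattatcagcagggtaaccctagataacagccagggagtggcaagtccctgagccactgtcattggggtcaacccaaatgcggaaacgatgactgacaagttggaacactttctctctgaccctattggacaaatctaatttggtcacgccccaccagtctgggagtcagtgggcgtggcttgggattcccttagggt
All starts are those of the RefSeq table. In Atp5g2 the palindrome begins 42 bases before the start, and in Cox6b1 the ETS core lies on the opposite strand 28 bases before the start. In Ndufc1 the YY1 core begins at base 23 after the start. The Atp5g2 window lies inside the span annotated for that gene in the count analysis, which ends at base 102672352, so its start is not the outermost one. The other starts also lie inside the annotated spans of their genes. Those spans end at base 30626151 for Cox6b1 and 51408988 for Ndufc1, and begin at base 30184144 for Cox7a1. The Cox6b1 match therefore lies within the annotated gene.

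In distal convoluted tubule-like cells 40 of the 74 tested genes were higher than in proximal tubule-like cells and 0 were lower, beside 30.0% of all genes tested in each direction. The median log2 fold change was 0.45 against −0.00 for all genes. Units of the 2 classes did not overlap for 38 of the 74 that were higher and for 1 that was lower, as for 28.4% and 34.0% of all genes. By complex, 12 of 15 tested complex V genes, 8 of 10 in complex IV, 5 of 9 in complex III, 14 of 35 in complex I and 1 of 4 in complex II passed.

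Cox7b had the largest change, with 2926, 3882 and 3280 CPM in distal convoluted tubule-like cells, above all proximal tubule-like units, and a log2 fold change of 1.21 ± 0.17 (edgeR adjusted p = 6.6e-10). Ndufv2 rose by 1.09 ± 0.26. Among ATP synthase genes Atp5j rose by 1.01 ± 0.18, Atp5k, which encodes the dimer subunit e, by 0.98 ± 0.18, and Atp5h, subunit d of the stalk, by 0.90 ± 0.19. Atp5b rose here by 0.47 ± 0.18. Of the 40, 37 were also called in loop of Henle-like cells, and Atp5b and Atp5f1, a stalk subunit, were among those that were not; both comparisons share the proximal tubule-like cells. Cycs, which had 0.17 ± 0.18, did not pass, nor did Ndufa6 at −0.35 ± 0.21, Ndufv3 at −0.28 ± 0.24 and Ndufs6 at −0.15 ± 0.22. The count of 40 moved with the libraries and settings: it was 14 without Akita replicate 1, 21 without Wild-type replicate 2 and 14 when smaller classes entered the fit.

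The 2 mitochondria-rich segments were then compared directly. Relative to loop of Henle-like cells, 7 of the 74 genes were lower in distal convoluted tubule-like cells and 0 higher, beside 2.23% and 4.71% of all genes tested. Of these 7, 4 belong to complex IV: Cox6b1, Cox6c, Cox7c and Cox8a. Cox6b1 counted 3475, 4165 and 2871 CPM in loop of Henle-like cells and 1499, 2145 and 1718 CPM in distal convoluted tubule-like cells, ranges that did not overlap, with a log2 fold change of −0.77 ± 0.19 (edgeR adjusted p = 0.0044). Cox8a fell by 0.75 ± 0.19, Cox6c by 0.59 ± 0.18 and Cox7c by 0.60 ± 0.20. The complex I accessory genes Ndufb6 and Ndufb9 fell by 1.06 ± 0.30 and 0.76 ± 0.21, and Uqcr11 of complex III by 0.67 ± 0.20. Among genes in the other direction, which did not pass, Uqcrc2 had 0.59 ± 0.48 and Atp5b 0.25 ± 0.21. The count of 7 was 1 without Akita replicate 1, 3 without Wild-type replicate 1 and 0 with finer clustering.

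Intercalated-like and connecting tubule-like cells were too few in Akita replicate 1, with 8 and 5 cells, for the minimum of 10 cells per unit set for the class comparison. They were compared in a further fit with a minimum of 5 cells, chosen after seeing the data, in which 75 of the 82 genes were tested. Intercalated cells secrete acid or base into the urine and are driven by the vacuolar proton pump, and their marker Atp6v1g3 averaged 10497 CPM here against 60.4 CPM in proximal tubule-like cells. In them 19 of the 75 genes were higher than in proximal tubule-like cells and 1 was lower, beside 21.2% and 24.4% of 794 genes tested. The median log2 fold change was 0.29, against −0.02 for all genes. With no filter on low counts 1 was higher and 5 were lower, with a median of −0.41 for the subunit genes and −0.82 for all genes. By complex, 6 of 11 tested complex IV genes, 5 of 15 in complex V, 5 of 35 in complex I and 1 each of complexes II and III and cytochrome c were higher.

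The largest change in intercalated-like cells was that of Cox7a1, the isoform of complex IV subunit VIIa known from heart and skeletal muscle. It counted 10, 17 and 15 UMIs in the 3 units of intercalated-like cells, or 623, 433 and 435 CPM. In proximal tubule-like cells it stood at 25.5, 33.7 and 25.2 CPM and in loop of Henle-like cells at 73.9, 82.8 and 122 CPM, so that every intercalated-like unit lay above every unit of both. The log2 fold change was 3.82 ± 0.48 against proximal tubule-like cells (edgeR adjusted p = 1.3e-13) and 2.44 ± 0.65 against loop of Henle-like cells (edgeR adjusted p = 0.0020). Cox7a1 did not pass the filter on low counts in the fit without intercalated-like cells and passed only when they entered, so these p-values are no independent support. With no filter on low counts the values were 3.14 (edgeR adjusted p = 9.8e-10) and 2.27 (edgeR adjusted p = 0.048). A Cox7a1 UMI was seen in 28 of 77 intercalated-like cells, or 36.4%, at a median depth of 793 UMIs, and in 48 of 1144 proximal tubule-like cells, or 4.20%, at a median depth of 782.5 UMIs. In each of the 4 libraries as deposited its level was highest in intercalated-like cells, at 623, 435, 657 and 435 CPM. Distal convoluted tubule-like cells varied, with 23.8, 185 and 0 CPM, the last against a limit of 156 CPM that a count of 0 allows. Connecting tubule-like cells had 290, 109 and 74.7 CPM from 4 UMIs in all.

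Cox7a2, the widely expressed isoform of the same subunit, remained the more abundant in all 5 classes. Over the pooled units, Cox7a1 amounted to 20.5% of the Cox7a2 level in intercalated-like cells, 5.88% in connecting tubule-like, 5.53% in distal convoluted tubule-like, 3.31% in loop of Henle-like and 2.22% in proximal tubule-like cells. Cox7a2 itself was higher in intercalated-like than in proximal tubule-like cells by 0.63 ± 0.20, with 2805, 2189 and 2144 CPM against 1316, 1368 and 1228 CPM. Cox7a2l, which encodes an assembly factor of respiratory supercomplexes, stood at 125, 153 and 174 CPM in intercalated-like cells and 109, 116 and 117 CPM in proximal tubule-like cells and was not tested. Of the other rare isoform genes, Cox6b2 had 5 UMIs and Cox6a2 and Cox8b had 0 UMIs in intercalated-like cells.

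**Figure D3:**
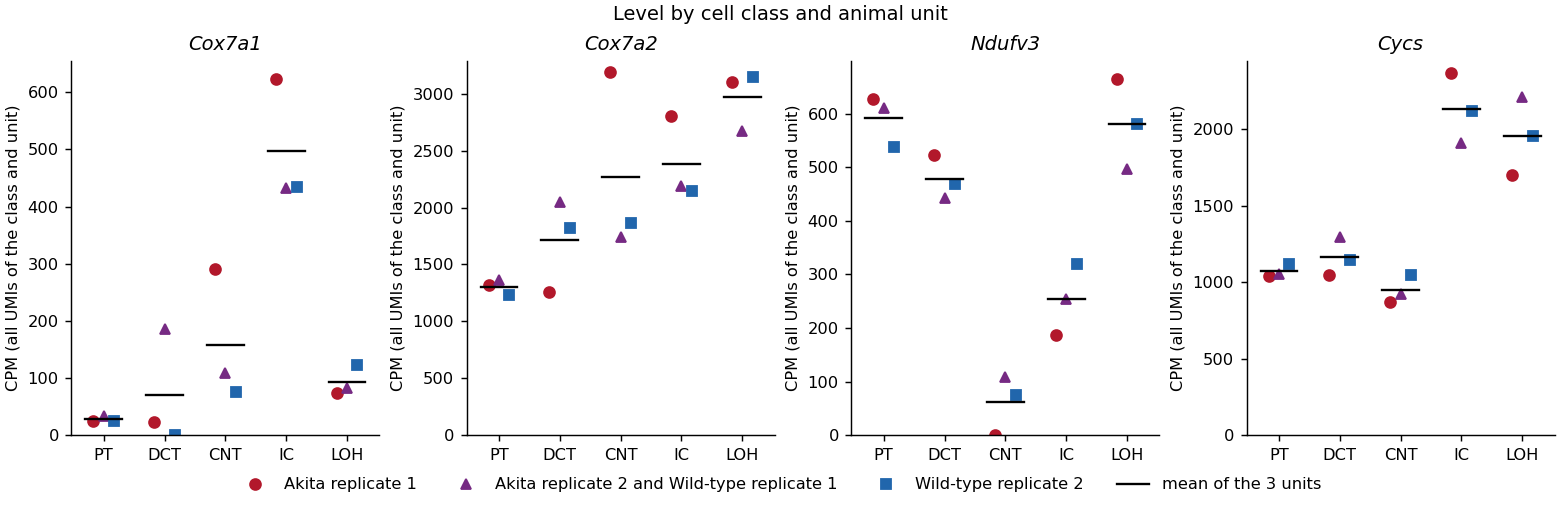
CPM (y axis, starting at 0, different scale per panel) of Cox7a1, Cox7a2, Ndufv3 and Cycs in proximal tubule-like (PT), distal convoluted tubule-like (DCT), connecting tubule-like (CNT), intercalated-like (IC) and loop of Henle-like (LOH) cells. Points are the 3 animal units and bars their means. Cox7a1 reaches 433 to 623 CPM in intercalated-like cells only, and Ndufv3 is lowest in connecting tubule-like and intercalated-like cells.

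After Cox7a1, the largest rises in intercalated-like cells were in Uqcrb, the ubiquinone-binding subunit of complex III, which rose by 1.21 ± 0.22, Atp5g2 by 1.21 ± 0.37, Cox7b by 1.07 ± 0.22 and Atp5g1 by 1.02 ± 0.21. Uqcrb counted 2244, 1756 and 1826 CPM there, more than in any unit of the other 4 classes. Cycs rose by 0.76 ± 0.21, with 2369, 1909 and 2115 CPM against 1038, 1053 and 1118 CPM, and Sdhd by 1.02 ± 0.26. Of the 19 genes, 18 were also higher in loop of Henle-like cells, the exception being Cox7a1, which was not tested there; the comparisons share the proximal tubule-like cells.

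Ndufv3 moved the other way. It counted 628, 610 and 537 CPM in proximal tubule-like cells and 187, 255 and 319 CPM in intercalated-like cells, ranges that did not overlap, and fell by 1.34 ± 0.33 on the log2 scale (edgeR adjusted p = 0.00024). In connecting tubule-like cells it counted 0, 109 and 74.7 CPM and fell by 2.86 ± 0.65 (edgeR adjusted p = 7.8e-05), although 3 counts correspond to 870, 163 and 224 CPM in those units, so the size of that change rests on very few UMIs.

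Set against loop of Henle-like cells, intercalated-like cells had 1 gene higher, Cox7a1, and 4 lower, beside 9.32% and 8.06% of all genes tested. The 4 were Uqcrh, which fell by 0.94 ± 0.28, Ndufa1 by 0.89 ± 0.25, Cox6a1 by 0.74 ± 0.23 and Cox6b1 by 0.68 ± 0.23. The count of 4 was 1 without Wild-type replicate 2 and 7 without Akita replicate 1. In connecting tubule-like cells 7 of 75 genes were higher than in proximal tubule-like cells and 2 lower, beside 13.0% and 22.4% of all genes tested, whose median was −0.25. Atp5g2 rose by 1.51 ± 0.52, Atp5g1 by 0.86 ± 0.28, Ndufb9 by 0.83 ± 0.28, Cox5b, a peripheral subunit of complex IV, by 0.78 ± 0.28 and Cox7b by 0.78 ± 0.26. Ndufa8, a small complex I subunit, counted 0, 163 and 0 CPM there and fell by 2.06 ± 0.73 from 299, 346 and 339 CPM. As 3 counts correspond to 870, 163 and 224 CPM in those units, the size of that change also rests on very few UMIs. The count of 7 was 2 without Wild-type replicate 2. With no filter on low counts 0 were higher and 25 lower, with a median of −1.11 for the subunit genes and −1.53 for all genes.

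Within the proximal tubule-like class, cells with more UMIs of markers of the straight S3 part than of the early S1 part were compared with the reverse, over the same 3 units. No gene of 76 tested was called, in edgeR, DESeq2 or limma-voom, while 0.601% of 3494 genes were higher and 0.315% lower. Of the 76, 3 had an unadjusted p under 0.05 in edgeR, beside 377 of all 3494. The median log2 fold change was −0.00, with a range of −0.45 to 0.44. The largest values, which did not pass, were Sdhc at 0.44 ± 0.19 and Ndufa11 at −0.45 ± 0.20; Uqcrb had 0.30 ± 0.16, Ndufa3 0.25 ± 0.16, Atp5o −0.37 ± 0.17 and Atp5k −0.32 ± 0.17. The share of nuclear-encoded UMIs was 6.44%, 7.52% and 6.58% in S1-marker and 6.39%, 6.86% and 6.28% in S3-marker cells, ranges that overlapped. Between the 7 proximal tubule-like clusters, pooled over units, it ranged from 5.35% to 8.09%.

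The mitochondrially encoded partners of these subunits were counted beside them. Of the 13 genes, 8 had enough UMIs to be tested. In all retained cells mt-Co2, mt-Co3 and mt-Atp6 had 3, 7 and 1 UMIs, and mt-Nd4l and mt-Atp8 had none. The cause of these low counts was not tested, and they are not read as low expression. Medians over the 8 genes hold no complex V gene, and mt-Co1 alone for complex IV. Percentages of mitochondrially encoded UMIs likewise hold almost no counts of the genes left out. They count every mitochondrially encoded gene, so they also hold UMIs from outside the 13 subunit genes. In loop of Henle-like cells mt-Co1, the catalytic core of complex IV, rose by 0.92 ± 0.18 relative to proximal tubule-like cells and mt-Nd6 of complex I fell by 0.44 ± 0.17, and the other 6 did not pass. Their median was 0.09, beside 0.78 for the nuclear-encoded genes. mt-Cytb of complex III had 0.19 ± 0.17 and mt-Nd1 0.05 ± 0.17. In distal convoluted tubule-like cells mt-Nd1 fell by 0.40 ± 0.17 and mt-Nd6 by 0.53 ± 0.17, with a median over the 8 genes of −0.28 beside 0.45 for the nuclear-encoded genes. In intercalated-like cells mt-Nd1, mt-Nd4 and mt-Nd6 fell by 0.71 ± 0.29, 0.97 ± 0.27 and 0.73 ± 0.27, with a median over the 8 genes of −0.62 beside 0.29 for the nuclear-encoded genes. In connecting tubule-like cells mt-Co1 and mt-Nd3 rose by 0.99 ± 0.29 and 0.75 ± 0.25. Between S3-marker and S1-marker cells mt-Nd5 rose by 0.73 ± 0.18 (edgeR adjusted p = 0.043) and the other 7 did not pass, with a median of 0.48 and a range of 0.37 to 0.73 beside a median of −0.00 for the nuclear-encoded genes.

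Genes around the complexes were followed from lists that were set with earlier results known. Of 51 assembly factors and regulators of the complexes, 7 were tested in the loop of Henle-like comparison. Uqcc2, an assembly factor of complex III, and Higd1a, which binds complex IV, rose by 1.21 ± 0.36 and 1.33 ± 0.39. Atpif1, the inhibitor of ATP synthase and the most abundant of the list at 1138 CPM, fell in each of the 4 other classes relative to proximal tubule-like cells, by 0.74 ± 0.22 in loop of Henle-like, 1.24 ± 0.22 in distal convoluted tubule-like, 1.21 ± 0.26 in intercalated-like and 2.29 ± 0.43 in connecting tubule-like cells. In distal convoluted tubule-like cells Uqcc2 and Pet100, an assembly factor of complex IV, rose by 0.83 ± 0.36 and 1.56 ± 0.32. Cox17, which carries copper to complex IV, had 0.03 ± 0.40 and −0.01 ± 0.37 in these 2 classes and did not pass.

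Of 14 transcriptional regulators of mitochondrial genes only Ppargc1a, the coactivator PGC-1α, was abundant enough to be tested between classes. In distal convoluted tubule-like cells it rose by 2.66 ± 0.39 against proximal tubule-like cells (edgeR adjusted p = 3.6e-09). Against loop of Henle-like cells it rose by 2.23 ± 0.61 (edgeR adjusted p = 0.010). Ppargc1a may have passed the filter on low counts through that class alone, the distal convoluted tubule-like cells, so these p-values are no independent support. In loop of Henle-like cells Ppargc1a had 0.43 ± 0.69 against proximal tubule-like cells and did not pass, with an error that leaves changes of moderate size undetected. Its relation to the subunit genes was not tested. Of 17 genes of the tricarboxylic acid cycle, 11 were tested. In loop of Henle-like cells 4 were higher and 0 lower, beside 27.1% and 30.0% of all genes tested. Among the 4 were Idh2 by 1.19 ± 0.32, Dlat by 0.88 ± 0.39 and Mdh2 by 0.62 ± 0.25. The median of the 11 was −0.01, close to that of all genes. Suclg1 had −0.31 ± 0.23 there. In distal convoluted tubule-like cells 5 of 11 were higher, beside 30.0% of all genes tested, among them Idh2 by 1.47 ± 0.28.

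No subunit gene was called between Akita and wild-type cortex. With the UMIs of all retained cells added up by library, 80 of the 82 genes were tested among 7169, and edgeR called 0 of the 80 in either direction, beside 0% of all genes. None of the 80 had an unadjusted p under 0.05 in edgeR, DESeq2 or limma-voom. The median log2 fold change, Akita over wild-type, was 0.02, the range −0.27 to 0.29 and the median standard error 0.22. Both Akita libraries lay above both wild-type libraries for 6 of the 80 and below for 5, as for 12.6% and 11.0% of all genes tested. Each label holds cells also counted under the other, and each group has 2 libraries, so that a difference of moderate size may not be detectable here. In these sums a different mix of classes and a different level per cell cannot be told apart.

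Atp5a1 counted 1181 and 1308 CPM in Akita replicates 1 and 2 and 1426 and 1561 CPM in Wild-type replicates 1 and 2, which did not overlap, with a log2 fold change of −0.26 ± 0.22 (edgeR adjusted p = 1.00). Sdhc had −0.22 ± 0.22 and Ndufc2 −0.15 ± 0.22. In the other direction Ndufb4 had 0.19 ± 0.20, Ndufa7 0.17 ± 0.22 and Ndufa1 0.17 ± 0.24. Cox4i1, the most abundant subunit gene, had 0.01 ± 0.24.

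**Figure D4:**
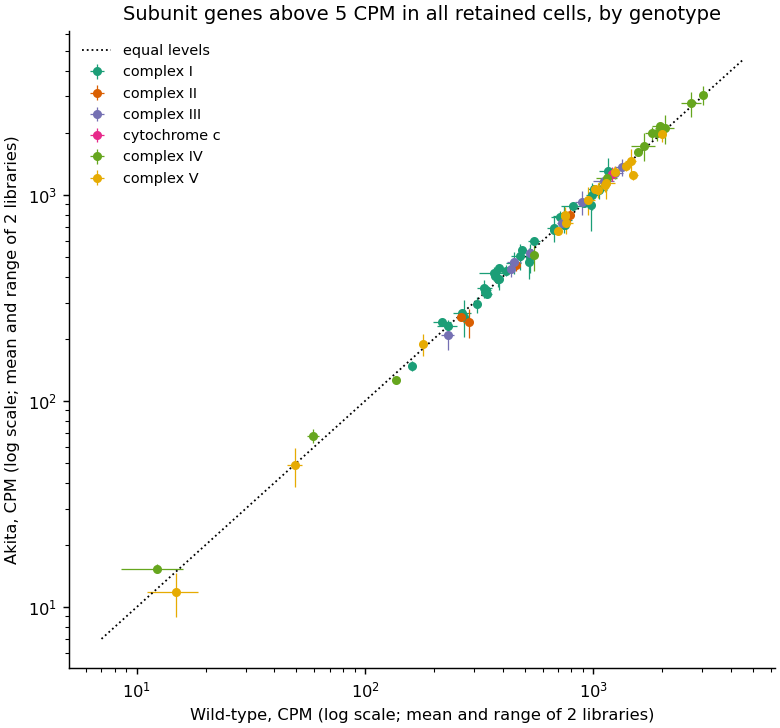
Level of each subunit gene above 5 CPM in all retained cells of the wild-type (x axis) and Akita libraries (y axis), both in CPM on log scales. Points are means and lines the range of the 2 libraries of a group, coloured by complex. The genes lie along the line of equal levels, and fold changes of the 80 tested genes range from −0.27 to 0.29 on the log2 scale.

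Within proximal tubule-like cells the picture was alike for 78 tested genes among 6104: 0 were called, and the range was −0.35 to 0.31. Of the 78, 0 had an unadjusted p under 0.05 in edgeR, DESeq2 or limma-voom, beside 60, 7 and 52 of all 6104. Atp5a1 had −0.35 ± 0.24, Sdhc −0.31 ± 0.24 and Cox5a −0.22 ± 0.25, and Cox7a1 0.31 ± 0.43, Ndufa7 0.19 ± 0.23 and Ndufv3 0.17 ± 0.23. With each shared barcode kept in 1 library only, 0 of 78 genes were called in all retained cells, and the range widened to −0.37 to 0.79, the highest value being that of Cox7a1 at 0.79 ± 0.38 (edgeR adjusted p = 1.00). Loop of Henle-like cells were not tested by genotype because Akita replicate 1 held 16 of them, under the minimum of 20 cells per library set for that comparison. Their subunit share was 14.5% in Akita replicate 1, 17.2% in Akita replicate 2, and for the wild-type mice 17.4% (replicate 1) and 13.7% (replicate 2), so that the groups overlapped.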

How the data were processed

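Cells of the renal cortex of 2 Akita and 2 wild-type mice were profiled by Drop-seq, 1 library per mouse. The deposited values are UMI counts per gene and barcode, made by the authors with STAR 2.5.2b, featureCounts 1.6.0 and UMI-tools 0.5.3 on GRCm38, per the submitters' processing notes. Barcodes with at least 200 genes and at most 50% mitochondrially encoded UMIs were retained, and barcode strings with 11 identical bases were left out. Clustering used scanpy 1.11.5 and Leiden (leidenalg 0.10.2, resolution 1) on 2000 variable genes and 30 principal components, without the 82 genes and mitochondrially encoded genes. Clusters were named from marker lists. No doublet caller was run, and an unnamed cluster of high depth stayed out of every class.

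Counts were summed per class and unit (at least 10 cells in every unit) or per library, and tested with edgeR 4.0.16 (quasi-likelihood, TMM, filterByExpr) over all genes, with Benjamini-Hochberg adjustment and a threshold of 0.05. The unit was a block in comparisons between classes, and genotype was compared over the 4 libraries as deposited (for loop of Henle-like cells, only with at least 20 in every library). Alternatives included DESeq2 1.42.0, limma-voom (limma 3.58.1), other filters and clusterings, and leaving out each library. Scripts were tested on simulated data. By a written rule the genes named were the 4 most abundant of each complex, all Sdh genes, Cycs, Ndufa4 and isoform groups, and for each comparison up to 5 called genes per direction by fold change (or the 3 with the smallest p where none was called). Ndufv1, Uqcrfs1, Cox7c and Atp5f1 were named after their values were seen. The members, lists and tests were chosen with earlier results of these data known. Floors cover counting error only. Some genes that the rule would name are not reported here.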

Additional observations from a re-analysis of the deposited data

How the results depend on the processing

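Counts of called subunit genes moved with several settings. For loop of Henle-like against proximal tubule-like cells (54 higher, 0 lower), the number higher was 4 with no filter on low counts, 21 with each cell thinned to 500 UMIs, and, with classes of at least 5 cells, 32 with cells of at most 25% mitochondrial UMIs and 30 with cells of at least 500 genes; 1 was lower with the 4 libraries as deposited. The median of the subunit genes lay above that of all genes in each of the 17 alternatives. For distal convoluted tubule-like against proximal tubule-like cells (40, 0), the number higher was 23 with DESeq2, 0 with no filter (3 lower), 11 with at least 500 genes, 11 with at most 25% mitochondrial UMIs, 12 thinned, 14 with classes of at least 5 cells, and with such classes 24 and 19 under those same 2 limits; 1 was lower as deposited. Against loop of Henle-like cells (7 lower), the number was 4 with DESeq2 and with classes of at least 5 cells, 12 as deposited, 2 without the unit block, 1 with cells assigned by marker UMIs, and 0 with no filter, Leiden resolution 2, thinning or either limit with 5-cell classes.

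For intercalated-like against proximal tubule-like cells (19 higher, 1 lower), no filter gave 1 and 5, and the number lower was 2 with at most 25% mitochondrial UMIs, 2 as deposited and 0 thinned. Against loop of Henle-like cells (1, 4), 2 were higher with RLE size factors, DESeq2 or as deposited, and the number lower was 0 with no filter, 7 by marker UMIs and 17 as deposited. For connecting tubule-like against proximal tubule-like cells (7, 2), the number higher was 0 with no filter, 16 at Leiden resolution 2, 18 by marker UMIs and 11 as deposited, and the number lower 25 with no filter and 1 with DESeq2, resolution 2 or marker UMIs. Thinning gave 1 lower gene in S3-marker cells. Of single genes, Atp5b in loop of Henle-like cells turned to −0.41 with no filter, −0.30 thinned and −0.043 with at least 500 genes and classes of 5 cells, and in connecting tubule-like cells with no filter Atp5g1 turned to −0.26, Ndufb9 to −0.31, Cox5b to −0.33 and Cox7b to −0.38. The no-filter setting tests more genes, and the cause of these changes was not tested in any setting.

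Leaving out 1 library at a time gave 44 to 53 higher for loop of Henle-like and 14 to 37 for distal convoluted tubule-like against proximal tubule-like cells, and 1 to 8 lower between these classes. It gave 15 to 20 higher and 1 to 1 lower for intercalated-like against proximal tubule-like, 1 to 1 higher and 1 to 7 lower against loop of Henle-like, and 2 to 9 higher and 1 to 2 lower for connecting tubule-like cells. With all UMIs as the denominator the subunit share was 5.44% in proximal tubule-like, 11.3% in loop of Henle-like and 7.68% in distal convoluted tubule-like cells, and by complex, over all retained cells, 2.03% for I, 0.177% for II, 0.702% for III, 0.124% for cytochrome c, 1.89% for IV and 1.596% for V. Between Akita and wild-type cells 0 subunit genes were called under every alternative with all 4 libraries. Among these, the replicate block gave 0 higher and 0 lower. With that block and each shared barcode kept in 1 file, 12 of all 5282 genes were called in proximal tubule-like cells. With 1 library left out, the subunit median in all retained cells ranged from −0.17 (without Akita replicate 2) to 0.16 (without Akita replicate 1). The labels' numbers share only a number. Same-numbered libraries had a correlation of deviations of −0.260, or 0.201 with each shared barcode kept in 1 file. Crossing the numbers gave 0 calls. The settings with classes of at least 5 cells and the crossed numbers were chosen after seeing the data. Leaving out all shared barcodes gave no value between classes, the limits on genes and mitochondrial UMIs gave none for loop of Henle-like cells at 10 cells, and loop of Henle-like cells were not run by genotype.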
